A study of Mus musculus with 6 samples.

Results

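The genes described here are 10 immediate early genes of the EGR, NR4A, IER and BTG families: Egr1, Egr2, Egr3, Nr4a1, Nr4a2, Nr4a3, Ier2, Ier3, Ier5 and Btg2. They were taken by symbol from a table of 47643 genes, and all 10 were found and passed the filter on low counts. Poly(A) RNA had been sequenced in 6 samples, 3 embryonic and 3 adult, of mast cells sorted out of mouse skin. The embryonic samples came from E16.5 skin, sorted as CD45+ F4/80- CD64- ckit+ ST2+, and the submitters describe these cells as derived from yolk sac hemogenic endothelium. The adult samples came from adult skin, sorted as CD45+ F4/80- CD64- ckit+ Fcer1+, and the submitters call these cells definitive. All mice were Cdh5CreERT2, in which an endothelial gene drives a tamoxifen-inducible Cre, and were pulsed with 4OHT at embryonic day 7.5. Nothing in the labels states that the sort used the lineage label, or that replicates were separate animals. The p-values therefore measure spread between sequenced samples only, and that spread may be technical. Skin of both ages was minced and digested with enzymes for 45 min at 37 °C, and adult skin had its epidermis removed in an additional Dispase step. Effects of age, of origin as described, of the differing gate marker (ST2 or Fcer1) and of that step cannot be told apart, because they changed together.

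Immediate early genes are transcribed within minutes of a stimulus, before any new protein is made. The kinase ERK acts through serum response factor and its partners on CArG boxes, and cyclic AMP and calcium act through CREB, MEF2 and NFAT. In mast cells, IgE receptor crosslinking and stem cell factor are known inducers, and enzymatic digestion of tissue is a known inducer in many cell types, which is why each library is given below.

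Libraries held 34122162 to 49813523 counts in genes, and 3 counts corresponded to 0.0603 to 0.085 CPM (counts scaled to library size, with TMM factors). The 10 mast cell markers, led by Hdc and Cpa3, summed to 123686 to 134895 CPM in the embryonic and 61793 to 64641 CPM in the adult samples, with none at 0. They went both ways: 6 were higher in embryonic samples, 3 were higher in adult samples, and 1 did not pass the test given below. Of the macrophage markers 7 of 8 tested were higher in adult samples, with Lyz2 and Cd68 the most abundant, and they summed to 156 to 241 CPM there and 15.9 to 42.8 CPM in embryonic samples. Of the dendritic and Langerhans cell markers 5 of 7 were, led by Cd207 and Flt3, at 38.0 to 92.1 and 4.15 to 6.15 CPM. The 6 keratinocyte markers, with Krt1 and Krt10 the most abundant over all samples but not above 4.69 CPM in any adult one, summed to 51.9 to 521 CPM in the embryonic and 18.6 to 41.5 CPM in the adult samples, and the 6 fibroblast markers, with Col3a1 and Col1a2 the most abundant, to 552 to 683 and 91.4 to 504 CPM. In the same test 1 of the 6 fibroblast markers was higher in adult samples and 0 in embryonic ones. Col3a1 and Col1a2 did not pass it. Brackets name the 2 most abundant markers of each further list, while sums are over the whole list. Erythroid markers (Hbb-bs and Hbb-bt) summed to 139 to 322 and 3.29 to 10.4 CPM, melanocyte markers (Pmel and Dct) to 36.5 to 58.0 and 4.08 to 16.4 CPM, and endothelial markers (Pecam1 and Kdr) to 25.7 to 33.7 and 3.47 to 7.64 CPM. Neutrophil markers (Mpo and Cxcr2) and T and B cell markers (Cd3g and Cd79a) summed to at most 0.664 and 2.95 CPM in any library. Some markers had no count in a whole group: S100a9 and Ly6g in the embryonic group, Hbb-y in the adult group, and Elane and Ms4a1 in both.

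RefSeq promoter windows (GRCm38.p6) were available for 7 of the 10 genes, in 11 windows, and not for Egr1, Egr3 or Ier2. The 5 printed here, of NR4A genes, Egr2 and Btg2, were chosen from the windows that hold matches to known response elements. Each is the stretch upstream of a transcript start, cut before the gene's first counted exon where it reached into it, written 5′ to 3′ on the gene's strand. Capitals mark CArG boxes, the cyclic AMP response element TGACGTCA, and its core TGACG, on either strand. The Egr2 window is intronic for the longest transcript and ends where a later counted exon begins. The Btg2 window ends at 134079156, short of the first counted exon base at 134079120. The bases directly after the Btg2 window did not match a GENCODE transcript of Btg2.
Nr4a1 (chr15:101266596-101266845, plus strand): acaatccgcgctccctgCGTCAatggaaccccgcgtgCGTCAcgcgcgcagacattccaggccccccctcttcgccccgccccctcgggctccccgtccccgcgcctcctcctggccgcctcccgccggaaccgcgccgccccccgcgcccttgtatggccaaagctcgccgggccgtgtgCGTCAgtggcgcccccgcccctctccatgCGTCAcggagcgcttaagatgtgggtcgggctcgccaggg
Nr4a2 (chr2:57124004-57124253, minus strand): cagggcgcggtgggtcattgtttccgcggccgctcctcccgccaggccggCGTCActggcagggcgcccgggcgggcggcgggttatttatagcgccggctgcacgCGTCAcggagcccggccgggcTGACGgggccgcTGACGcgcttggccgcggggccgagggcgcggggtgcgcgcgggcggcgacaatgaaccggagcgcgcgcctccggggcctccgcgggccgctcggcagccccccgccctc
Nr4a3 (chr4:48045055-48045152, plus strand): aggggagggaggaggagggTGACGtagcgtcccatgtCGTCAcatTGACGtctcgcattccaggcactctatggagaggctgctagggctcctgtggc
Egr2 (chr10:67537619-67537868, plus strand): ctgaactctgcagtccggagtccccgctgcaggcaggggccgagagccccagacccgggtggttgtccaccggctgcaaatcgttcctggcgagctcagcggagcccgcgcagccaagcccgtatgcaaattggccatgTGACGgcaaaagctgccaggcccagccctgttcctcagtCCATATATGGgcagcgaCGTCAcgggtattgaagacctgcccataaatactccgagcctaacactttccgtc
Btg2 (chr1:134079156-134079405, minus strand): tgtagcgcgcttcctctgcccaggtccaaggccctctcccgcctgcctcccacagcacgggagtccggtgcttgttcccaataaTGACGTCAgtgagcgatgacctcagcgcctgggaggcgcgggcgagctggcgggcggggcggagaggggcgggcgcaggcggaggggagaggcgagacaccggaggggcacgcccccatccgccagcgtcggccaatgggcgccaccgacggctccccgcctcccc

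The windows of Nr4a1, Nr4a2 and Nr4a3 each held 4 matches to TGACG within 250 bases of the start. In Nr4a3, 3 of them lie before the first counted exon and are shown. At least 1 match was found in 17.8% of all 32841 windows of the same length, and at least 4 in 0.137%. These letters hold a CpG, and the windows of Nr4a1, Nr4a2 and Nr4a3 had 74.4%, 80.0% and 63.6% GC, against a median of 52.4% over all windows, for which these shares were not matched. A CArG box was found in 4 of the 5 Egr2 windows, some of which overlap and share it, against 1.47% of all windows. In the Egr2 window shown it lies 72 to 63 bases before the start, with a TGACG match on each side. The full element TGACGTCA, which holds TGACG on each strand, was found in Btg2 and in 1.55% of all windows. The windows of Ier5 and Ier3, not printed, held no CArG box and no TGACG on either strand. Other matches were GCGNGGGCG, an EGR site, in Btg2, Nr4a1 and Nr4a2 (4.7% of all windows), a MEF2 site overlapping TATAAA in Nr4a2 (2.92% and 12.4%), and an NF-kB site in Ier3 (3.9%). The windows of these 7 genes held no AAAGGTCA, the NR4A monomer site, and no CCGGAAG, an ETS core, found in 1.34% and 6.91% of all windows. A match is a description of letters and says nothing of binding in these cells.

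Adult samples held more RNA of 7 of the 10 genes, and embryonic samples held more of Btg2. Ier5 differed most, 5.24-fold, followed by Egr2 at 4.15-fold, Egr1 at 4.11-fold, Nr4a3 at 3.40-fold and Egr3 at 2.80-fold, while Nr4a2 and Nr4a1 differed 1.76-fold and 1.68-fold. Btg2 was 2.74-fold higher in embryonic samples. Ier2 and Ier3 did not pass the test. These calls are from edgeR's quasi-likelihood test, with p-values adjusted over all 15111 genes tested by the Benjamini-Hochberg method and a threshold of 0.05. Such calls were common: 63.0% of all genes tested passed, 31.7% higher in adult and 31.2% higher in embryonic samples. A call on its own therefore says little about these genes. The libraries of the groups did not overlap for 8 of the 10, against 70.0% of all genes tested. Called and at least 2-fold different were 5 members in the adult direction and 1 in the embryonic, against 20.8% and 17.2% of all genes tested. The median log2 fold change, adult minus embryonic, was 1.15 over the 10 genes and 0.02 over all genes tested. By the size of the log2 fold change in either direction, Ier5 stood at percentile 84.5 of all genes tested, Egr2 at 80.7, Egr1 at 80.6 and Nr4a3 at 76.8. Nr4a2 and Nr4a1, at percentiles 49.7 and 46.5, were near the middle. Macrophage, dendritic and Langerhans cell markers, given above, were also higher in adult samples, and their part in these differences was not tested. In bulk RNA of sorted cells, fewer cells that express a gene and less RNA of it per cell cannot be told apart.

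**Figure D1:**
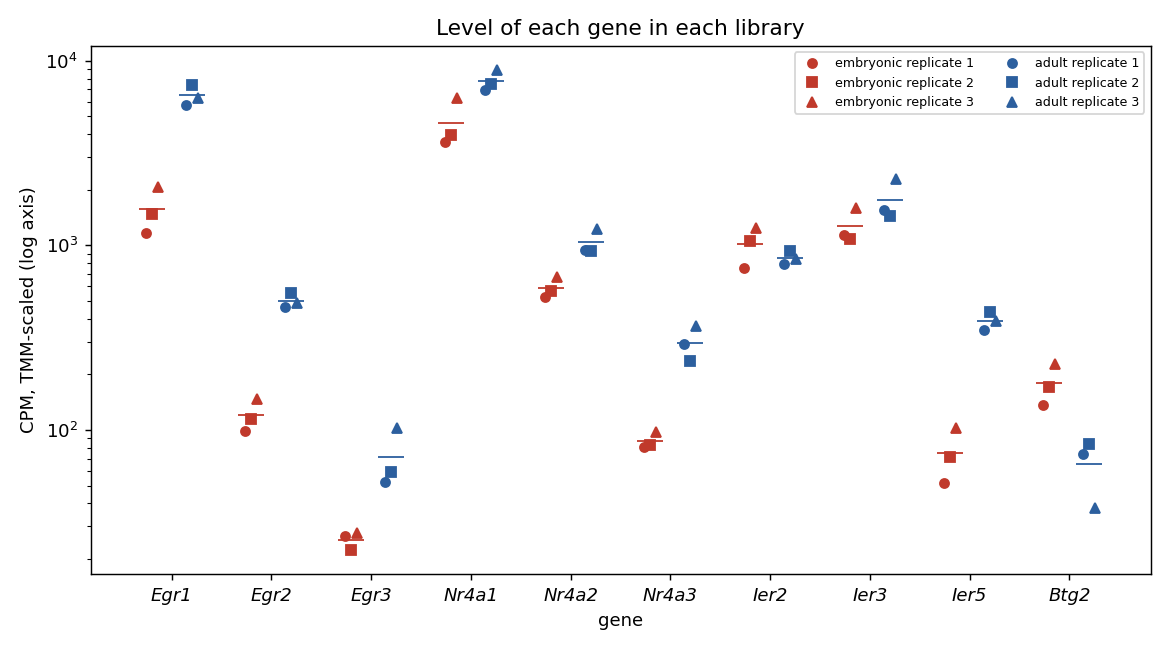
CPM on a log axis (y) of each of the 10 genes (x), embryonic samples in red and adult samples in blue, 3 each, with replicates 1, 2 and 3 as circles, squares and triangles and horizontal lines at group means. The groups do not overlap except for Ier2 and Ier3, and embryonic replicate 3 is the highest embryonic library for every gene.

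Of the EGR factors, zinc finger proteins that bind GC-rich sites, Egr1 was by far the most abundant. Egr1 (ENSMUSG00000038418.7, GRCm38 chromosome 18, 34859823 to 34864984, plus strand) stood at 1169, 1479 and 2084 CPM in embryonic replicates 1 to 3 and at 5763, 7438 and 6271 CPM in adult replicates 1 to 3. The lowest adult library was well above the highest embryonic one, and embryonic replicate 3 was the nearest to the adult group. Means were 1578 ± 465 CPM and 6491 ± 859 CPM (SD, n = 3), with a log2 fold change of 2.04 ± 0.21 SE (adjusted p = 4.2e-05). In rank by CPM it moved from place 61, 45 and 27 among all genes in embryonic samples to place 11, 7 and 13 in adult samples.

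Egr2, which with Egr3 is known as a target of calcium and NFAT in lymphocytes, differed about as much as Egr1. Egr2 (ENSMUSG00000037868.15, chromosome 10, 67535475 to 67542188, plus strand) was at 98.5, 115 and 148 CPM in embryonic samples and 462, 551 and 489 CPM in the adult ones. Its groups were wide apart and its adult samples close together (log2 fold change 2.05 ± 0.15 SE, adjusted p = 2.7e-06). Egr3 (ENSMUSG00000033730.3, chromosome 14, 70077445 to 70080157, plus strand) was the least abundant of the 10 genes by CPM in embryonic samples, at 26.5, 22.3 and 27.5 CPM. Adult samples held 52.5, 59.4 and 102 CPM of it, with replicate 3 far above the other two. Its log2 fold change was 1.48 ± 0.24 SE (adjusted p = 0.00085), and 1.14 without adult replicate 3. Per exon length, Egr1 made up 84.5% to 88.1% of EGR transcripts in embryonic and 86.6% to 89.0% in adult samples, so the mix of the family overlapped between groups.

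The NR4A genes encode orphan nuclear receptors whose activity is set mainly by how much of them is made. Nr4a1 (Nur77; ENSMUSG00000023034.6, chromosome 15, 101266846 to 101274792, plus strand) was at 3653, 3984 and 6252 CPM in the embryonic and 6912, 7484 and 8927 CPM in the adult samples. It was among the 11 most abundant genes by CPM in all 6 libraries, and at place 4 in adult replicate 3. Embryonic replicate 3 lay just under the lowest adult library, so the groups were separate but close (log2 fold change 0.75 ± 0.21 SE, adjusted p = 0.012). Without embryonic replicate 3 the log2 fold change was 0.98, and without embryonic replicate 1 it was 0.58.

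Nr4a2 (Nurr1; ENSMUSG00000026826.13, chromosome 2, 57106830 to 57124003, minus strand) was at 528, 565 and 675 CPM in the embryonic and 943, 934 and 1234 CPM in the adult samples. The difference was about as large as that of Nr4a1, with less spread among embryonic samples (log2 fold change 0.82 ± 0.14 SE, adjusted p = 0.00063). Nr4a3 (Nor1; ENSMUSG00000028341.9, chromosome 4, 48045153 to 48086447, plus strand) was at 80.8, 83.3 and 98.0 CPM in the embryonic and 291, 235 and 364 CPM in the adult samples, with no overlap (log2 fold change 1.76 ± 0.16 SE, adjusted p = 1.1e-05). Nr4a1 made up 90.8% to 93.3% of NR4A transcripts per exon length in all 6 libraries. The share of Nr4a3 was 0.604% to 0.833% in embryonic and 1.19% to 1.58% in adult samples, without overlap, and that of Nr4a2 overlapped, at 6.13% to 8.03% and 6.99% to 7.65%.

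The 3 IER genes, grouped by name as early response genes, gave unlike results. Ier5, known as an activator of a heat shock factor, had the largest difference of all 10 genes. Ier5 (ENSMUSG00000056708.5, chromosome 1, 155096361 to 155099636, minus strand) was at 51.3, 71.0 and 102 CPM in the embryonic and 349, 433 and 391 CPM in the adult samples. Embryonic replicate 3 held 1.98 times the level of replicate 1, and still lay far below every adult library (log2 fold change 2.39 ± 0.24 SE, adjusted p = 4.8e-05).

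Ier2 (ENSMUSG00000053560.4, chromosome 8, 84661331 to 84662852, minus strand), a nuclear protein related to Ier5, was at 754, 1053 and 1238 CPM in the embryonic and 793, 936 and 849 CPM in the adult samples. All adult values lay inside the embryonic range (log2 fold change -0.24 ± 0.17 SE, adjusted p = 0.24). Without embryonic replicate 1, its lowest embryonic library, Ier2 was higher in embryonic samples at a log2 fold change of -0.44 (adjusted p = 0.018). Ier3 (ENSMUSG00000003541.6, chromosome 17, 35821684 to 35822923, plus strand), known to regulate cell survival and ERK, was at 1144, 1086 and 1599 CPM in the embryonic and 1548, 1451 and 2294 CPM in the adult samples. Embryonic replicate 3 was above adult replicates 1 and 2 (log2 fold change 0.47 ± 0.21 SE, adjusted p = 0.080). Ier3 was called higher in adult samples without embryonic replicate 3 (0.61, adjusted p = 0.021) or without adult replicate 2 (0.60, adjusted p = 0.049), with DESeq2 (0.47, adjusted p = 0.023), with all genes of 1 count or more kept (0.42, adjusted p = 0.0043) and with a replicate block (0.46, adjusted p = 0.0067). Keeping all genes of 1 count or more also moved the adjusted p of other members far, to 8.6e-47 for Egr1 and 0.046 for Btg2. Under the other alternatives Ier3 was not called, at an adjusted p from 0.063 (limma-voom) to 0.26 (without embryonic replicate 2 or without adult replicate 3). Ier5 thus took 1.03% to 1.37% of IER transcripts per exon length in embryonic and 4.41% to 6.51% in adult samples.

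Btg2, an antiproliferative protein that binds the mRNA deadenylase complex and is a textbook target of p53, went the other way. Btg2 (ENSMUSG00000020423.6, chromosome 1, 134075170 to 134079120, minus strand) was at 137, 171 and 228 CPM in the embryonic and 74.4, 83.8 and 37.7 CPM in the adult samples. Every embryonic library was above every adult one, and adult replicate 3 held less than the other two (log2 fold change -1.45 ± 0.33 SE, adjusted p = 0.0087). Without adult replicate 3 the log2 fold change was -1.18. Markers of other cells were also lowest in that library: fibroblast markers summed to 91.4 CPM against 504 and 443 CPM in adult replicates 1 and 2, dendritic and Langerhans cell markers to 38.0 against 85.8 and 92.1 CPM, and melanocyte markers to 4.08 against 15.1 and 16.4 CPM. Their part in the level of Btg2 was not tested. Btg2 was the only one of the 10 for which adult replicate 3 was the lowest adult library.

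**Figure D2:**
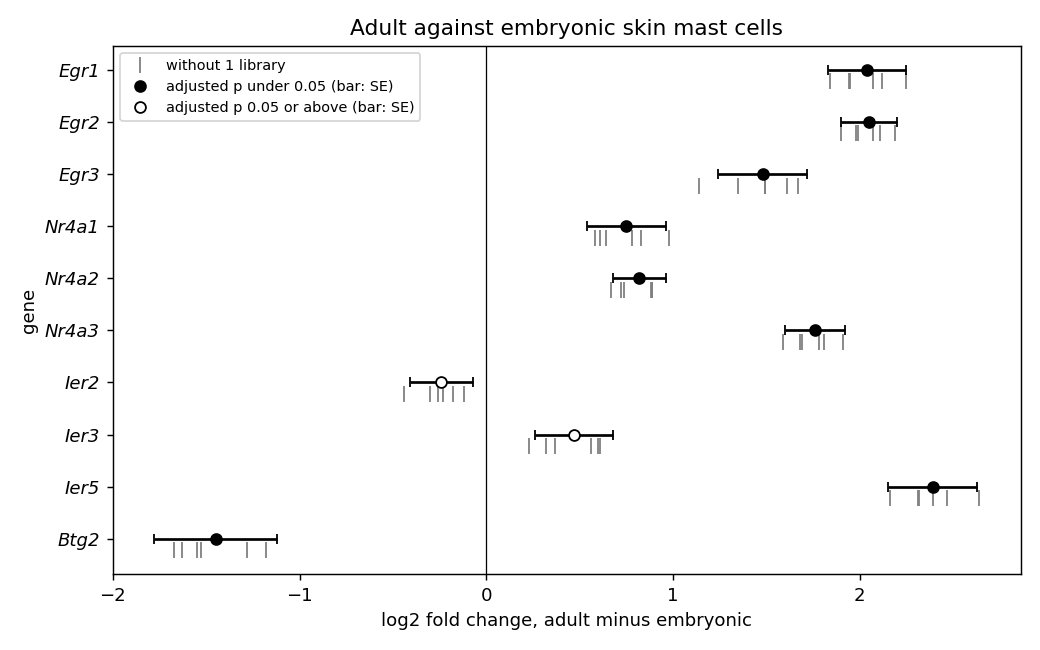
Log2 fold change, adult minus embryonic (x), of each gene (y), with bars for the SE, filled points for an adjusted p under 0.05, and grey ticks for the values with 1 library left out. Egr1, Egr2 and Ier5 lie above 2, Btg2 is the only called gene below 0, and no tick crosses 0.

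Compared per exon length (TPM computed from counts and exon lengths), the order of levels was alike at the top and differed below it. In embryonic samples it was Nr4a1 at 5845 ± 1651, Ier3 at 3525 ± 684, Ier2 at 2091 ± 492, Egr1 at 1100.4 ± 305, Nr4a2 at 454 ± 51.8, Btg2 at 204 ± 49.3 and Egr2 at 111 ± 21.7 TPM (SD, n = 3). Ier5, Egr3 and Nr4a3 followed at 71.2 ± 23.1, 56.1 ± 4.35 and 45.7 ± 4.03 TPM. The library ranges of Ier5 overlapped those of its neighbours Egr2 and Egr3, and all other neighbours were separate. In adult samples Nr4a1 led at 9935 ± 1001 TPM, followed by Ier3 at 4919 ± 1119 and Egr1 at 4590.4 ± 644 TPM, whose ranges overlapped. Next came Ier2 at 1789.7 ± 161, Nr4a2 at 807 ± 105, Egr2 at 467 ± 46.4 and Ier5 at 378 ± 41.5 TPM. Egr3 at 158 ± 53.5 and Nr4a3 at 157 ± 29.8 TPM overlapped, and Btg2 was last at 76.0 ± 30.0 TPM. The 10 genes together took 0.789%, 0.893% and 1.28% of all counts in the embryonic samples and 1.72%, 1.91% and 1.96% in the adult samples. By this summed share embryonic replicate 3 was the nearest of its group to the adult samples. For single genes this did not always hold. Embryonic replicate 3 was the farthest for Btg2, at 228 CPM against 37.7 to 83.8 CPM in adult samples. It was also the farthest for Ier2, at 1238 CPM against 793 to 936 CPM.

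The libraries of a group were not alike for these genes. All 10 were highest in embryonic replicate 3 among embryonic samples, and 8 were lowest in replicate 1, while over all genes tested replicate 3 was highest for 36.0% and replicate 1 lowest for 35.0%. The excess of replicate 3 over the group mean of log2 CPM ran from 0.12 for Egr3 to 0.50 for Ier5. Adult libraries split the genes: Egr1, Egr2, Ier2, Ier5 and Btg2 were highest in replicate 2, and Egr3, the 3 NR4A genes and Ier3 in replicate 3. Over all genes tested, adult replicates 2 and 3 were highest for 31.3% and 36.8%. Adult replicate 1 was lowest for 6 of the 10, and for 35.6% of all genes tested. The median SD of log2 CPM over the 10 genes was 0.33 in embryonic and 0.21 in adult samples, against 0.20 in both groups over all genes tested. By that SD, Btg2 varied most in adult samples (0.62), ahead of Egr3 (0.51), and Ier5 in embryonic ones (0.49).

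**Figure D3:**
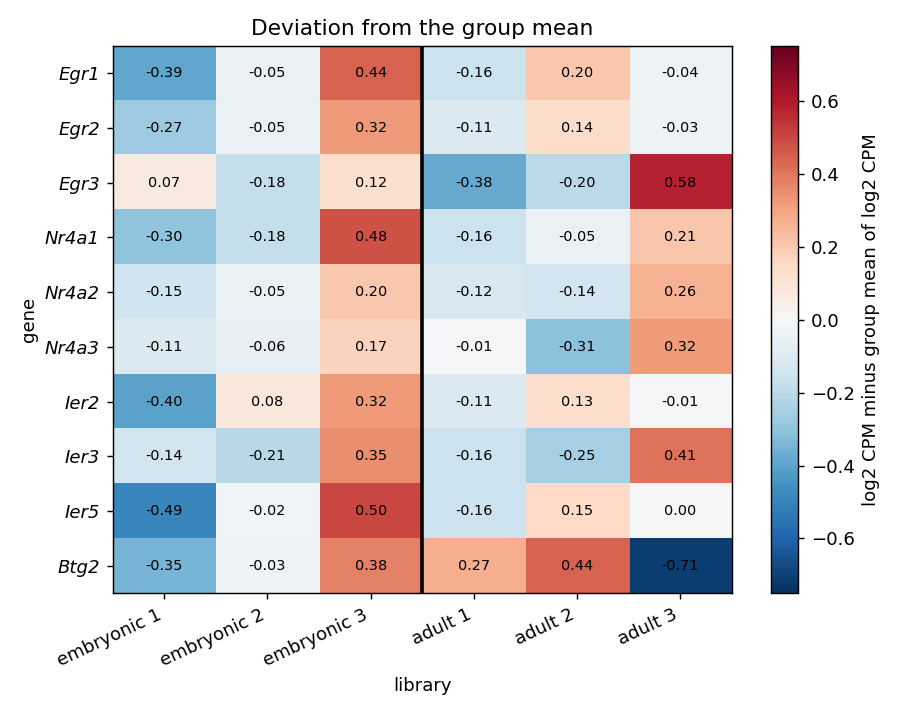
Log2 CPM minus the group mean of log2 CPM (colour and printed value) for each gene (rows) in each library (columns), with the groups parted by a black line. The column of embryonic replicate 3 is positive for all 10 genes, and in adult replicate 3 Egr3 stands at 0.58 and Btg2 at -0.71.

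Other measures moved with embryonic replicate 3. Of 36 tested genes in a list of other immediate and delayed early genes, 31 were highest in it, and their summed level was 37931 CPM, against 19754 and 22922 CPM in replicates 1 and 2. Heat shock genes, often induced by warm digestion, were highest in it for 8 of 10, at 3408 CPM in sum against 2605 and 2773 CPM. Keratinocyte markers summed to 521 CPM in it against 51.9 and 108 CPM, erythroid markers to 322 against 174 and 139 CPM, and macrophage markers to 42.8 against 15.9 and 22.7 CPM. No keratinocyte or macrophage marker was without counts in the embryonic group. In adult samples the heat shock genes were all 10 highest in replicate 2, as were Egr1, Egr2, Ier2, Ier5 and Btg2, at 5345 CPM in sum against 4529.9 and 3584 CPM in replicates 1 and 3. Of the 36 other early genes 27 were highest in replicate 3, as were Egr3, Ier3 and the 3 NR4A genes. Macrophage markers were highest in adult replicate 2, at 241 CPM, and lowest in replicate 3, at 156 CPM, against 234 CPM in replicate 1. Without embryonic replicate 3, 9 of the 10 genes were called, 8 of them higher in adult samples. The part of digestion and of other cells in the results was not tested.

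**Figure D4:**
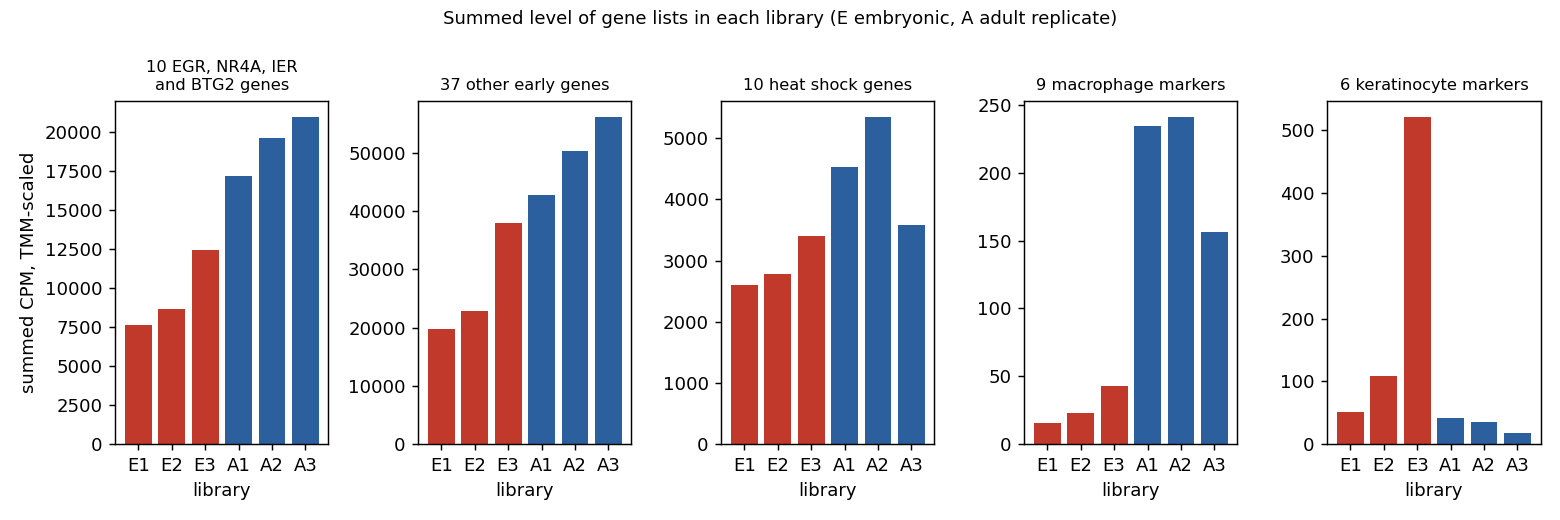
Summed CPM (y, linear axes from 0, each panel with its own scale) of 5 gene lists by library, 3 embryonic in red (E) and 3 adult in blue (A). The 10 genes and the other early genes are higher in embryonic replicate 3 than in its group and higher still in adult samples, the heat shock genes peak in adult replicate 2, and keratinocyte markers reach 521 CPM in embryonic replicate 3.

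Counts of called genes in the lists that follow stand beside 31.7% of all genes tested called higher in adult and 31.2% higher in embryonic samples. Of 36 other early genes tested, 24 were higher in adult and 5 in embryonic samples, with a median log2 fold change of 1.11 against 0.02 over all genes tested. Leaving out 1 library at a time gave 22 to 26 and 4 to 5. Arc, an effector of synaptic plasticity in neurons, was at 102 ± 4.01 against 2.52 ± 0.936 CPM, Fosl1, an AP-1 subunit, at 23.4 ± 5.48 against 0.731 ± 0.208 CPM, and Mcl1, a survival protein, 4.22-fold higher at 2339.6 ± 209 CPM. Dusp5, a phosphatase that acts on ERK in the nucleus, was 4.52-fold higher in embryonic samples, with 957 ± 261 CPM compared to 212 ± 35.7 CPM. Of the heat shock genes 4 of 10 were higher in adult samples, led by the co-chaperone Dnajb1 at 1021 ± 135 against 240 ± 55.2 CPM, with Dnaja1 and Hsp90aa1 2.22-fold and 1.83-fold higher. Hspd1, a mitochondrial chaperonin, was 1.46-fold higher in embryonic samples. Without 1 library the heat shock counts were 3 to 5 in the adult direction and 0 to 1 in the other, and the latter was 0 without adult replicate 1.

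Genes that act on EGR proteins differed in both directions. Nab1 and Nab2 encode corepressors that bind EGR factors, and Nab2 is itself a known EGR target. Nab2 was 2.29-fold higher in embryonic samples, with 82.9 ± 26.7 CPM compared to 36.2 ± 3.81 CPM (adjusted p = 0.0018), opposite to Egr1. Nab1 was 1.45-fold higher in adult samples, with 283 ± 7.72 CPM compared to 195 ± 29.7 CPM, and Sp3, a factor of GC-rich sites, 1.36-fold. The relatives Egr4 and Sp1 did not pass (log2 fold changes -0.40 and -0.22), so that of 5 tested 2 were higher in adult and 1 in embryonic samples. Without embryonic replicate 2 the adult count was 1.

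The list of 9 nuclear receptor partners and coregulators had 4 genes higher in adult and 1 higher in embryonic samples (median log2 fold change 0.49). Rxra, which pairs with NR4A1 and NR4A2, was 1.65-fold higher in embryonic samples, with 308 ± 6.80 CPM compared to 187 ± 12.0 CPM. The coactivators Ncoa3 and Ncoa1 were 2.78-fold and 3.46-fold and the corepressor Ncor1 2.12-fold higher in adult samples. Of 6 relatives and partners of IER and BTG proteins, 5 were higher in adult samples and 0 in embryonic ones. Tob1, which like Btg2 recruits the deadenylase, was 3.66-fold higher at 234 ± 55.7 against 64.1 ± 11.4 CPM, Tob2 1.32-fold, and Ier5l, a relative of Ier5, 22.5-fold at 18.9 ± 1.87 against 0.840 ± 0.103 CPM. None of these relatives was called in the direction of Btg2. Without embryonic replicate 2 the adult count was 3, and without embryonic replicate 3 the counts were 4 and 1.

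The factors that read upstream signals were counted in 3 lists. Of 6 tested serum response factor genes and partners, 3 were higher in adult and 1 in embryonic samples: Elk4 2.34-fold and Mrtfa 1.85-fold in adult, Elk1 with 20.2 CPM in adult compared to 13.5 CPM in embryonic, and Elk3 1.53-fold in embryonic samples. Of 8 CREB genes and coactivators 6 were higher in adult and 0 in embryonic samples (5 and 1 without embryonic replicate 3), among them Crtc2, a calcium- and cyclic AMP-gated coactivator, at 72.4 ± 0.483 against 27.8 ± 3.37 CPM, Ep300 1.94-fold and Crem 1.79-fold. Of 14 tested genes of MEF2, NFAT and calcineurin, 7 were higher in adult and 2 in embryonic samples. Rcan1, a calcineurin inhibitor induced by NFAT, was 11.9-fold higher in adult samples, with 394 ± 47.5 CPM compared to 33.2 ± 4.24 CPM (adjusted p = 4.1e-08). Nfatc1 was 2.32-fold and Hdac5, a repressor of MEF2, 1.97-fold higher, whereas Nfatc3 was 2.09-fold higher in embryonic samples.

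Kinases of the cascade from RAS to ERK went both ways, with 5 of 18 higher in adult and 6 in embryonic samples (median log2 fold change 0.09). Braf was 2.24-fold higher in adult samples, and Nras, Rps6ka1 and Rps6ka5 were 1.73-fold, 1.63-fold and 1.42-fold higher in embryonic ones. Without adult replicate 2 the embryonic count was 3. Of 21 genes of mRNA decay, 10 were higher in embryonic and 7 in adult samples: the deadenylase subunits Cnot6l and Cnot9 were 2.22-fold and 1.66-fold and the decay factor Khsrp 1.68-fold higher in embryonic samples, and Zc3h12c, a ribonuclease, 3.06-fold higher in adult ones. With 1 library left out the decay counts were 7 to 9 in the embryonic and 5 to 7 in the adult direction.

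Of 15 other p53 targets tested, 6 were higher in adult and 2 in embryonic samples (median log2 fold change 0.16). Cdkn1a, which encodes the cell cycle inhibitor p21, was 3.09-fold higher in adult samples at 1237 ± 60.8 against 401 ± 58.1 CPM, Trp53inp1 3.83-fold and Mdm2 2.35-fold. Ccng1, cyclin G1, was 2.09-fold higher in embryonic samples. Without embryonic replicate 1 the embryonic count was 4.

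The genes whose pattern over the 6 libraries was most like that of 1 gene of each family were found by Pearson correlation of log2 CPM among 6632 genes with a mean of at least 20 CPM. For Egr1 they were Cav2, a caveolin (r = 0.9984), Gadd45b, a stress response gene (0.9978), and Ppp1r3b, a glycogen-targeting phosphatase subunit (0.9977). For Nr4a1 they were Dguok, a mitochondrial nucleoside kinase (0.9931), Dusp1, a phosphatase of MAP kinases (0.9929), and Calhm2 (0.9921). Dusp1 was, like Nr4a1, abundant in both groups, at 3213 CPM in the embryonic and 6622 CPM in the adult samples. For Ier2 they were Castor1, an arginine sensor (0.9807), Zdhhc17, a palmitoyltransferase (0.9432), and Gid4, a ubiquitin ligase subunit (0.9289). With 6 libraries and so many genes high values are found for any pattern, and for Egr1 and Nr4a1 much of the correlation is the difference between groups, so these are descriptions only.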

How the data were processed

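The deposited table holds read counts per gene for 6 libraries, which the authors made, per the file headers, with featureCounts 1.5.0-p1 over exons of GENCODE M9, without strand and ignoring reads marked as duplicates. The recorded command sets no option to count reads that map to several places or overlap several genes, and no member shares an exon base with another gene of the table. Per the submitters' processing notes, STAR and GRCm38 (mm10) were used; no source used here gives their versions. Libraries were made with a SMART-Seq v4 kit, which does not mark strand and has no molecular identifiers, per the labels' protocols.

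Embryonic and adult counts were compared in edgeR 4.0.16, run in R 4.3.3 (TMM, filterByExpr with a minimum count of 10, robust quasi-likelihood F-test, Benjamini-Hochberg adjustment over 15111 genes). The SE was taken as the absolute log2 fold change over the square root of F. TPM was computed from counts and deposited exon lengths. Symbols came from GENCODE M21 by gene ID (47224 of 47643 matched). Of columns of other samples, 0 were present. Replicates differed by more than counting noise (chi-square per degree of freedom 34.3 to 89.1). On simulated data with few changed genes, p-values of unchanged genes were calibrated before adjustment. The share of false calls there was on average above the threshold of 0.05. That share depends on how many genes change, and 63.0% of genes tested were called in the real data. The simulation therefore does not give the share of false calls among the real ones. Named were all members, in each pathway list the 3 smallest adjusted p in the direction with more calls and the smallest in the other, the 2 most abundant genes of each marker list, and the genes most like Egr1, Nr4a1 and Ier2. Further genes of these lists, named to describe a list, were chosen after their values were seen. The members and lists were chosen with earlier results of these data known. Alternatives were RLE and upper quartile scaling, 2 other filters, DESeq2 1.42.0, limma-voom (limma 3.58.1), no robust estimation, a replicate block, each library left out, stricter thresholds, and CPM on unscaled totals.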

Additional observations from a re-analysis of the deposited data

How the results depend on the processing

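No member changed direction under any alternative run. The count of members called was 8 with RLE or upper quartile scaling, with only genes at 1 CPM or more in 3 libraries kept, with limma-voom and without robust estimation, 9 with all genes that had 1 count or more and with DESeq2, and 7 at an adjusted p under 0.01. Ier3 was the added call in both cases of 9 (adjusted p = 0.0043 and 0.023), and Nr4a1 the one lost. With all genes of 1 count or more kept, adjusted p was unlike that of the main fit: 8.6e-47 against 4.2e-05 for Egr1, and 0.046 against 0.0087 for Btg2. With 1 library left out, 8 to 9 members were called, 7 to 8 higher in adult and 1 to 2 higher in embryonic samples. Among all genes 9519 were called, and 5744 of these differed at least 2-fold. Replicate numbers are shared between the groups, but same-numbered libraries did not deviate together (correlations across genes of -0.122, -0.079 and -0.133). Deviations were taken from means of 3 libraries, so this check cannot show whether same-numbered libraries were collected or processed together. With the replicate block 9 members were called, 8 of them higher in adult samples, with Ier3 added (0.46, adjusted p = 0.0067). Depth did not limit these genes, whose lowest level was 22.3 CPM. On unscaled library totals the groups still did not overlap for 8 members.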
